A study of Drosophila melanogaster with 57 samples.

Results

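The genes described here are the 5 listed storage protein genes of the larval fat body, Lsp1alpha, Lsp1beta, Lsp1gamma, Lsp2 and Fbp1, out of 17559 genes counted. They were chosen by name as larval storage proteins whose RNA is still seen in adults, so the values that chose them are their levels in these adult libraries, and those levels are given as a description. The rule used no contrast between strains, sexes or tissues, and these were tested, but the genes were proposed with results of these data known. All 5 are identified in the files by FlyBase gene number.

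The study removed the genes of 3 enzymes of hydrogen sulphide production in Drosophila melanogaster by CRISPR/Cas9: CBS (cystathionine beta-synthase, Cbs), CSE (cystathionine gamma-lyase, Cth) and MST (CG12279). RNA was sequenced from adults aged 5 days and kept at 23 °C with 20 flies per vial, with the sexes apart. Whole bodies of each sex were taken from the double deletions CBS/CSE(2) (DD2, from CBS(8)) and CBS/CSE(1) (DD1, from CBS(5)), from the single deletions CBS(8), CBS(5), CSE(8) and MST, and from the control. The labels call the CSE line CSE(8) while their protocols name a strain CSE1, and the conflict was not resolved, so the line is called CSE. Thoraxes of each sex were taken from CBS(5) and the control. A further group of males is labelled CBS/CSE(2) backcrossed on yw (DD2yw). Each of the 19 groups has 3 libraries, 57 in all, and the labels do not say whether replicates came from separate cultures, so p-values measure the spread between these libraries. The control carries a Cas9 transgene under the actin 5C promoter (M{Act5C-Cas9.P.RFP-}ZH-2A) with the alleles y1 and w1118 and a DNA ligase 4 mutation, DNAlig4169. For the CSE and MST deletions, embryos of that strain were injected and the adults that came from them were crossed to yw flies. Their carriers were selected by an mCherry reporter under the actin 5C promoter. For the CBS deletion an mCherry reporter construct was integrated too. Each single deletion strain is 1 transformant line, the 2 double deletions share 1 CSE line, and balancer chromosomes were used to build them. Strain background and deletion therefore cannot be told apart for any 1 line. In the plots the lines are written CBS5, CBS8, CSE, MST, DD1 and DD2.

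The larval serum proteins belong to the hexamerins, a branch of the hemocyanin superfamily that stores amino acids instead of carrying oxygen. The larval fat body makes them in large amounts, secretes them into the hemolymph, and takes them back up before the pupa forms, when they become protein granules that are used up while the adult is built. LSP1 is assembled from alpha, beta and gamma subunits encoded by separate genes, and LSP2 by a further gene. Fbp1 encodes the fat body receptor through which hexamerins are taken up, and ecdysone, the moulting hormone, induces it late in larval life. The adult fat body is a different tissue, best known in females for making yolk proteins.

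The genes lie on 3 chromosome arms, and their positions were taken from the dm6 assembly. Lsp1alpha (FBgn0002562) is at X:12490291-12492982 and Lsp1beta (FBgn0002563) at 2L:898500-901316, both on the plus strand. Lsp1gamma (FBgn0002564, 3L:66430-68995) and Lsp2 (FBgn0002565, 3L:12129393-12131869) are also on the plus strand, and Fbp1 (FBgn0000639, 3L:14094589-14098053) is on the minus strand. Lsp1alpha and the deleted Cbs gene are both on X, 8.55 megabases apart. The 3 Lsp1 genes are paralogs, and how far reads could be shared between them was not examined. In whole CBS(5) males Lsp1beta had between 245 and 324 counts per library while Lsp1alpha had 0 counts in all 3.

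Levels are in CPM (counts per 1000000 counts on genes), and levels of different genes are compared only after division by exon length (CPM per kb). Lsp1beta had the highest mean CPM per kb of the 5 genes in 16 of the 19 groups, Lsp1gamma in 2 (DD2yw males and CBS(5) male thoraxes) and Lsp2 in 1 (whole CBS(5) males). In whole control males Lsp1beta had between 50.6 and 64.2 CPM per kb and Lsp2 between 18.6 and 62.1, so these neighbours in the order overlapped. Lsp1alpha followed at 10.7 to 16.5 CPM per kb, below both, then Lsp1gamma at 0.245 to 0.476 and Fbp1 at up to 0.0430. In whole control females the levels of Lsp1beta (8.15 to 32.0 CPM per kb) and Lsp2 (0.935 to 17.1) again overlapped, and Fbp1 (0.304 to 2.21) overlapped with Lsp2 and stood above Lsp1gamma (0.0200 to 0.0874). Over all 56 libraries of useful depth, Lsp1beta was counted in every one (lowest 4.26 CPM) and so was Lsp2 (lowest 0.567 CPM), whereas Lsp1alpha was at 0 counts in 13 and Fbp1 in 11.

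Counts on genes ran between 9705034 and 31616200 per library, apart from 1 DD2yw library with 7321, which was left out of all tests and levels. The deleted gene was below every matching control library in each library of its strain, but by unequal amounts. In CSE males Cth stood at 15.4, 20.4 and 26.5 CPM, against 58.1 to 71.4 CPM in control males, above the 3.14 to 3.95 CPM of DD1 and DD2 males and the 7.24 to 7.78 CPM of CSE females, so Cth RNA remained in the libraries labelled CSE males. In the 2 remaining DD2yw libraries Cbs stood at 34.4 and 33.3 CPM and Cth at 45.4 and 32.7 CPM, against 0.0772 to 0.462 and 3.55 to 3.85 CPM in DD2 males, so they go against their label and are called the libraries labelled DD2yw. Control female thorax replicate 1 stood apart: 37.2% of its gene counts fell on ribosomal RNA rows, against at most 0.280% in the other thorax libraries. In control thorax replicate 3 of females and of males 8.74% and 9.09% of the reads tallied by the counting were not on a gene, against 26.0% to 57.1% in the other thorax libraries. Whole male libraries differed in yolk protein RNA (Yp1, Yp2 and Yp3 summed), a sign of female RNA, with values between 85.5 and 181 in DD1, DD2 and MST, between 183 and 6145 in CBS(8), between 213 and 6771 in CBS(5) and between 1745 and 3453 in CSE, against 832 to 1971 CPM in control males. As bulk RNA was sequenced, fewer cells of a type and less RNA per cell cannot be told apart in any result here.

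Lsp1alpha RNA was all but missing from males without Cbs. The subunit gene had 0, 0 and 0 counts in the 3 CBS(5) males and 0, 1 and 2 counts in the 3 CBS(8) males, against 429, 581 and 411 counts in control males. In DD1 males it had 5, 4 and 2 counts and in DD2 males 7, 0 and 1 counts. The 12 libraries of these 4 strains stood between 0 and 0.541 CPM, far below the 28.0 to 43.2 CPM of the control, and none overlapped with it.

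Against 3 counts over the group, the level in CBS(5) males was at least 518-fold lower than in control males. From the summed counts it was 534-fold lower in CBS(8) males (95% counting interval 183 to 2594), 137-fold lower in DD1 males (76.5 to 276) and 171-fold lower in DD2 males (86.4 to 396). These intervals are exact ones and cover counting error only. The quasi-likelihood test gave adjusted p-values of 3.94e-08 for CBS(5), 3.59e-08 for CBS(8), 5.92e-08 for DD1 and 5.84e-08 for DD2, and no alternative setting tried ended these calls. In CBS(5) males the fitted change was the most negative of all 13036 genes tested, in CBS(8) males it ranked 8, and in both double deletions it ranked 14. CBS(5) male replicate 3 and CBS(8) male replicate 3, with 213 and 183 CPM of yolk protein RNA, had 0 and 2 counts of Lsp1alpha.

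The changes of its neighbours were smaller in CBS(5) and CBS(8) males. Of the 10 nearest tested genes on X (X:12404616-12583193), the log2 fold changes lay between -1.75 and 0.49 in CBS(5) males and between -1.69 and 0.47 in CBS(8) males. Among these 10 neighbours 2 rose and 3 fell in CBS(5), 3 rose and 3 fell in CBS(8), 0 rose and 0 fell in DD1, and 1 rose and 3 fell in DD2. Over all genes 14.6%, 12.8%, 5.37% and 8.24% were higher in CBS(5), CBS(8), DD1 and DD2, and 18.1%, 19.6%, 7.29% and 9.74% were lower.

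**Figure D1:**
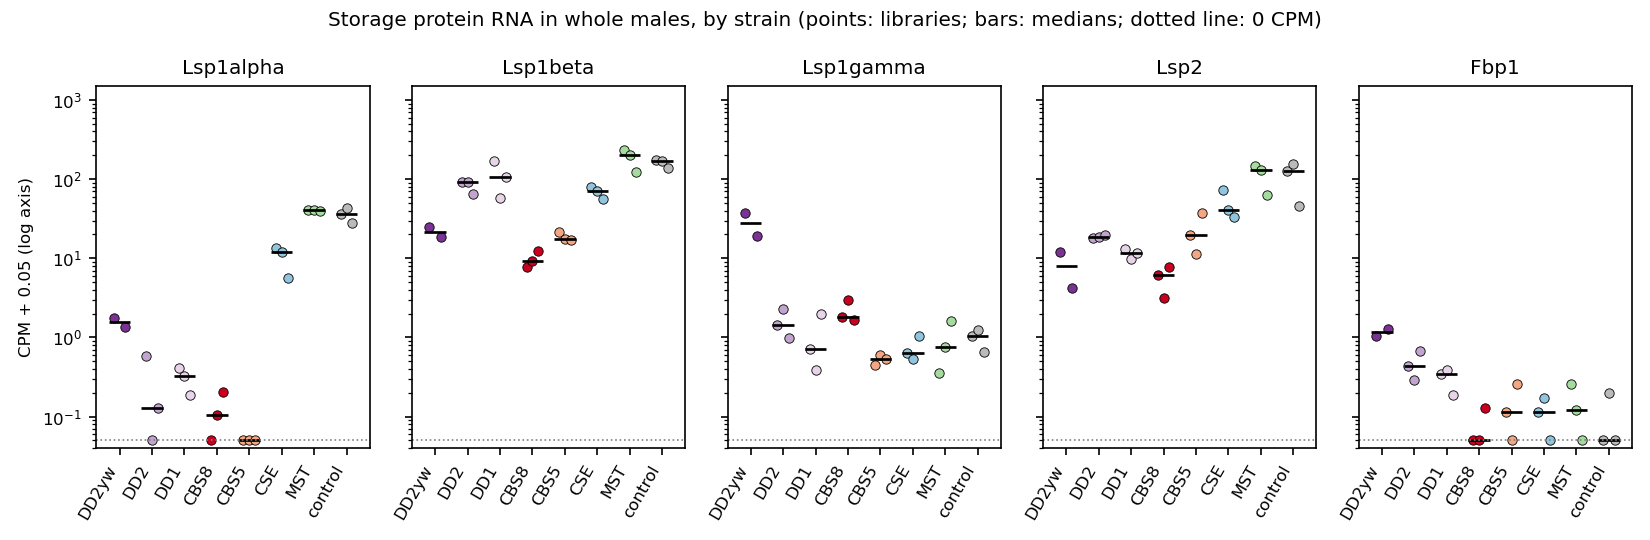
CPM (plus 0.05, log axis) of the 5 genes in whole males of each strain, 1 point per library (2 for the libraries labelled DD2yw, 3 otherwise), with medians as bars and 0 CPM as a dotted line. Lsp1alpha stood at or under 0.541 CPM in the 12 libraries of DD2, DD1, CBS(8) and CBS(5), between 5.64 and 13.5 CPM in CSE, and at 28.0 CPM or more in the control.

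In CSE males Lsp1alpha was lower but present, at 13.5, 11.8 and 5.64 CPM. These values did not overlap with control males (35.8, 43.2 and 28.0 CPM), and the log2 fold change was -1.75 ± 0.34 (SE, adjusted p = 0.00591), a 3.36-fold lower level. The lowest of the 3 was also the CSE library with the most yolk protein RNA (3453 CPM), and with the most Cth RNA (26.5 CPM), and the part of either in the result was not tested. Without that library the change was -1.45 (adjusted p = 0.0391). MST males had 41.2, 40.8 and 39.1 CPM, within the spread of the control (log2 fold change 0.19, 95% interval -0.44 to 0.83, adjusted p = 0.763).

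The libraries labelled DD2yw, which hold Cbs RNA, had 1.69 and 1.32 CPM of Lsp1alpha. This was a log2 fold change of -4.40 ± 0.47 against control males (SE, adjusted p = 3.45e-06) and of 2.93 ± 0.68 against DD2 males (adjusted p = 0.00515).

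In whole females Lsp1alpha was near 0 in every strain but one. In MST, CBS(5), CBS(8), DD1 and control females each library held at most 6 counts, and the 3 DD2 females held 8, 0 and 12 counts. CSE females had 98, 92 and 9 counts (4.49, 3.99 and 0.410 CPM), against 1, 0 and 6 counts (0.0481, 0 and 0.301 CPM) in control females. Every CSE female was above every control female, with the third CSE library close to the highest control. From the summed counts the level was 27.0-fold higher (95% counting interval 12.9 to 68.1). The gene passed the count filter among females only while both CSE and DD2 were in the fit, so the fit with no filter is the one to read, with a log2 fold change of 4.59 ± 1.01 (SE, adjusted p = 0.0179). With the filter it was 4.60 ± 0.95 (adjusted p = 0.00926), and that call was lost without control female replicate 1 (adjusted p = 0.0710) or replicate 2 (0.0506), and in a fit of these 2 groups only the gene was under the count filter.

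The CSE effect on Lsp1alpha thus had opposite signs in the sexes, and its difference, females minus males, was 6.36 ± 0.93 (SE, adjusted p = 8.64e-05), where 0.628% of 13535 genes had a difference above 0 that passed. In DD2, DD1 and CBS(5) the same difference of effects was also called, at 8.63 ± 1.36, 6.54 ± 2.06 and 10.92 ± 3.43 (adjusted p = 3.71e-05, 0.0240 and 0.0346), with 19.8%, 19% and 8.02% of genes called above 0. The CBS(5) call was lost in a fit of only the groups compared (adjusted p = 0.0780). In CBS(8) it was 7.21 ± 3.28 (adjusted p = 0.117, edgeR), with 0 of the 5 genes called there, 1 at an unadjusted p under 0.05 and 2 by DESeq2, and 17.8% of genes called either way. It was called in a fit of only the groups compared (7.32, adjusted p = 0.0452) and by DESeq2 (7.13, adjusted p = 0.00213), so the strains are not divided by this call. In females of these 4 strains and the control no library held more than 12 counts of Lsp1alpha, so a fall in females could not be seen at this depth and the difference restates the fall in males.

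Lsp1beta, the most abundant of the set per length, fell in males of both CBS single deletions and stood higher in males of the double deletions than in the CBS strain each was made from. In CBS(5) males it had 21.4, 17.7 and 17.0 CPM and in CBS(8) males 7.63, 9.24 and 12.3 CPM, against 176, 171 and 139 CPM in control males. Neither strain overlapped with the control, and the log2 fold changes were -3.02 ± 0.33 and -4.01 ± 0.34 (SE, adjusted p = 3.8e-06 and 1.79e-07), an 8.14-fold and a 16.1-fold lower level.

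DD1 males had 171, 57.6 and 105 CPM of Lsp1beta, which overlapped with the control (log2 fold change -0.58 ± 0.30, adjusted p = 0.263). Without DD1 male replicate 1, the highest, the change was called at -1.03 (adjusted p = 0.0299). DD2 males had 91.7, 92.03 and 64.6 CPM, all below the control, with a change of -0.91 ± 0.30 (adjusted p = 0.0443). That call was lost when any 1 of the 6 libraries was left out (adjusted p between 0.0518 and 0.124) and with no filter on low counts (0.0543).

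Set against their own CBS parent lines, both double deletions were higher in Lsp1beta without overlap. The log2 fold change was 2.45 ± 0.32 for DD1 over CBS(5) males (SE, adjusted p = 6.44e-05) and 3.10 ± 0.33 for DD2 over CBS(8) males (adjusted p = 1.85e-05). DD2 females were higher than CBS(8) females as well, with 70.9, 23.1 and 107 CPM in DD2 females, against 4.26, 8.91 and 8.92 CPM in CBS(8) females (3.20 ± 0.77, adjusted p = 0.0208). That female call was lost without DD2 replicate 1 or 3 or without any 1 CBS(8) library (adjusted p between 0.0583 and 0.104). DD1 females (23.9, 23.3 and 80.8 CPM) were all above CBS(5) females (14.4, 8.83 and 12.5 CPM), with a difference of 1.83 ± 0.72 that was not called (adjusted p = 0.215).

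CSE males had 80.2, 70.7 and 55.4 CPM of Lsp1beta, below every control male (-1.19 ± 0.30, adjusted p = 0.0319), but the call was lost when any 1 of the 6 libraries was left out (adjusted p between 0.05003 and 0.157). In females, CBS(8) was lower than the control, whose libraries had 88.0, 29.2 and 22.4 CPM, by a log2 fold change of -2.65 ± 0.75 (adjusted p = 0.0162). This call was lost without control replicate 1 (-1.79, adjusted p = 0.1001) or CBS(8) replicate 1 (-2.36, 0.0713). CBS(5) females did not overlap with the control either, at -2.0 ± 0.73 (adjusted p = 0.0691, and 0.0406 by DESeq2). The libraries labelled DD2yw had 24.6 and 18.7 CPM, lower than control males (-2.75 ± 0.38, adjusted p = 2.8e-05) and than DD2 males (-1.82 ± 0.36, adjusted p = 0.00132).

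Lsp2, the other hexamerin of the set, fell in males of all 4 strains without Cbs. It had 19.7, 11.3 and 36.9 CPM in CBS(5) males and 6.09, 3.06 and 7.71 CPM in CBS(8) males, against 127, 154 and 46.1 CPM in control males. DD1 males had 13.0, 9.72 and 11.6 CPM and DD2 males 17.8, 18.3 and 19.6 CPM. None of the 12 libraries reached the lowest control male. The log2 fold changes were -2.16 ± 0.46 for CBS(5), -4.24 ± 0.52 for CBS(8), -3.28 ± 0.49 for DD1 and -2.50 ± 0.47 for DD2 (SE, adjusted p = 0.00266, 1.02e-05, 0.000108 and 0.000982), and no alternative tried ended these calls. The libraries labelled DD2yw had 11.8 and 4.19 CPM, also lower than control males (-3.61 ± 0.62, adjusted p = 0.000338) and with no call against DD2 males (adjusted p = 0.19).

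Lsp2 in DD1 males was below that in CBS(5) males by an amount that was not called (-1.12 ± 0.47, adjusted p = 0.0679) but was by DESeq2 (-1.12, adjusted p = 0.0364). DD2 males exceeded CBS(8) males without overlap (1.74 ± 0.50, adjusted p = 0.0348), and leaving out any 1 library but CBS(8) replicate 3 lost that call (adjusted p between 0.0725 and 0.178). CSE males (73.4, 40.9 and 33.4 CPM) and MST males (145, 129 and 62.2 CPM) overlapped with control males, at -1.10 ± 0.44 (adjusted p = 0.194) and 0.06 ± 0.44 (adjusted p = 0.952).

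In females Lsp2 varied widely within groups, and control females had 37.8, 2.32 and 42.2 CPM. DD1 females had 3.37, 0.567 and 2.32 CPM and CBS(8) females 2.02, 2.26 and 1.78 CPM, with log2 fold changes of -3.80 ± 1.01 and -3.78 ± 1.01 against the control (SE, adjusted p = 0.0103 and 0.0117). Control female replicate 2 lay within the DD1 range and close to the CBS(8) values, so the groups touched in DD1. The CBS(8) call was lost without CBS(8) replicate 3 (adjusted p = 0.0513). DD2 females (3.88, 4.51 and 16.3 CPM) overlapped with the control at -1.75 ± 0.91 (adjusted p = 0.0948, and -2.97 with adjusted p = 0.00451 when scaled on genes at least as high in thorax), a change that was called when control replicate 2 or DD2 replicate 3 was left out (-2.32 and -2.78, adjusted p = 0.0224 and 0.0390). CBS(5) females overlapped with the control too (11.8, 4.76 and 12.9 CPM, -1.54 ± 0.90, adjusted p = 0.243).

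Lsp1gamma was scarce in whole bodies, between 0.0501 and 3.59 CPM in the 21 females and between 0.309 and 2.90 CPM in the 21 males of the 7 strains. It did not fall with the others. In DD2 females it had 3.40, 0.595 and 3.59 CPM, against 0.144, 0.219 and 0.0501 CPM in control females, every DD2 library being above every control. The log2 fold change was 4.16 ± 0.92 (SE, adjusted p = 0.00132). In females of DD1, CBS(8) and CBS(5) the change was 2.19 ± 1.00, 2.22 ± 1.01 and 2.36 ± 0.99 (adjusted p = 0.101, 0.109 and 0.113) and was not called, apart from CBS(8) in a fit of only the groups compared (2.20, adjusted p = 0.00951) and CBS(5) by DESeq2 (2.46, adjusted p = 0.0496). In males of these 4 strains the changes lay between -0.85 in CBS(5) and 1.25 in CBS(8), with adjusted p between 0.074 and 0.974, and CBS(8) was called in a fit of only the groups compared (1.25, adjusted p = 0.0348). The effect of DD2 was larger in females than in males by 3.31 ± 1.09 (adjusted p = 0.0208).

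The libraries labelled DD2yw had 37.5 and 18.8 CPM of Lsp1gamma, against 1.39, 2.22 and 0.925 CPM in DD2 males and 1.00, 1.19 and 0.613 CPM in control males. They did not overlap with any other whole-body library. The log2 fold change was 5.06 ± 0.52 against control males (SE, adjusted p = 1.15e-06) and 4.33 ± 0.50 against DD2 males (adjusted p = 3.96e-06). The same 2 libraries had 14120 and 11100 CPM of 6 flight muscle genes in sum, against 2706 to 3589 CPM in control males, and the part of muscle RNA in the result was not tested.

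Fbp1, the hexamerin receptor gene, was found almost only in females in the control. Control females had 7.65, 5.38 and 1.05 CPM, against 0, 0.149 and 0 CPM in control males. Among females it was low in both CBS single deletions, at 0.310, 0.278 and 0.302 CPM in CBS(5) and 0, 0.145 and 0 CPM in CBS(8). Both lay below every control female. The log2 fold change was -3.98 ± 0.96 in CBS(5) (SE, adjusted p = 0.00951). From the summed counts of 3 in CBS(8) and 303 in the control, the level was 100.3-fold lower in CBS(8) (95% counting interval 34.0 to 489, adjusted p = 0.00132). Neither call was lost under any alternative.

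In the double deletions Fbp1 was nearer to the control. DD1 females had 1.55, 2.53 and 9.38 CPM and DD2 females 5.52, 0.644 and 2.38 CPM, and both overlapped with the control (-0.10 ± 0.76 and -0.67 ± 0.77, adjusted p = 0.925 and 0.444). Scaled on genes at least as high in thorax as in whole body, Fbp1 was called lower in DD2 females (-1.71, adjusted p = 0.0287). DD1 exceeded CBS(5) by 3.88 ± 0.95 (adjusted p = 0.0267). From the summed counts DD2 exceeded CBS(8) 63.7-fold (95% counting interval 21.5 to 311, adjusted p = 0.0134). The DD1 call was lost without DD1 replicate 3, CBS(5) replicate 1 or CBS(5) replicate 2 (adjusted p between 0.0872 and 0.160) and in a fit of only the groups compared (0.110), and the DD2 call without DD2 replicate 1, CBS(8) replicate 1 or CBS(8) replicate 3 (0.0690 to 0.0768). CSE and MST females stayed within the spread of the control, at 2.70, 2.52 and 1.77 CPM and at 3.85, 3.07 and 0.548 CPM.

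In whole males Fbp1 was under the count filter, with at most 0.617 CPM in the 21 libraries of the 7 strains. With no filter it was called higher in DD2 males against control males (2.93 ± 0.95, SE, adjusted p = 0.0451) and against CBS(8) males (3.73 ± 1.06, adjusted p = 0.0396), with 5, 3 and 8 counts in DD2 males, 0, 0 and 1 in CBS(8) males and 0, 2 and 0 in control males. The libraries labelled DD2yw had 0.988 and 1.24 CPM. Fbp1 passed the filter among males only through them, so the change against the control is given with no filter, at 4.44 ± 0.84 (adjusted p = 0.000798), against 2 counts in 3 control libraries. From the summed counts the level was 22.2-fold higher (95% counting interval 5.64 to 192). Their yolk protein RNA (131 and 86.3 CPM) was below that of every control male (832 CPM or more).

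**Figure D2:**
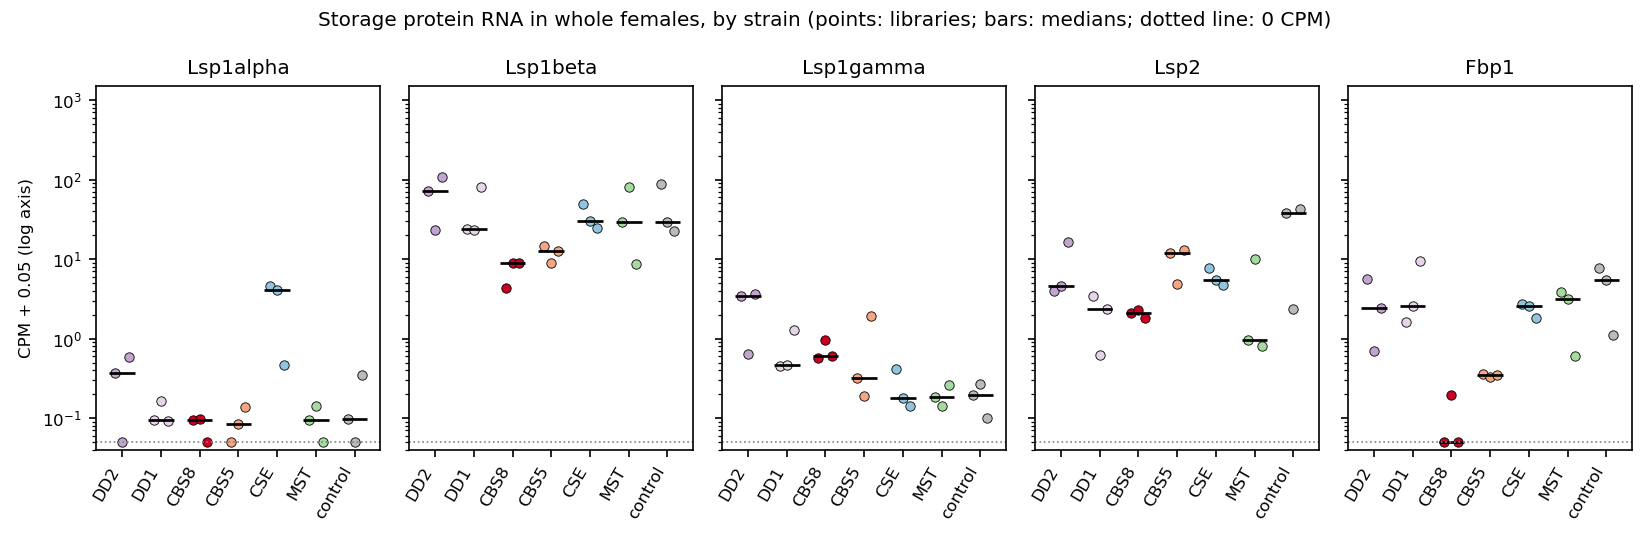
CPM (plus 0.05, log axis) of the 5 genes in whole females of each strain, 1 point per library (3 per strain), with medians as bars and 0 CPM as a dotted line. Fbp1 stood at or under 0.310 CPM in the 6 libraries of CBS(8) and CBS(5) and at 0.548 CPM or more in every other female library, and Lsp1alpha passed 1 CPM in 2 CSE females only.

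Control female thoraxes had 910 to 5876 CPM of flight muscle genes and 255 to 661 CPM of ovary genes, against 433 to 710 and 11000 to 18060 CPM in whole control females. In the control, where the tissues were tested, thoraxes had more Lsp1beta and Lsp1gamma in CPM than whole bodies. The order of Lsp1beta was the reverse in CBS(5) males, at 7.56, 7.21 and 13.1 CPM in thoraxes and 21.4, 17.7 and 17.0 CPM in whole bodies. Control male thoraxes had 849, 630 and 782 CPM of Lsp1beta, against 176, 171 and 139 CPM in whole control males. The log2 fold change, thorax over whole body, was 2.89 ± 0.32 in males (SE, adjusted p = 5.13e-05). Control female thoraxes had 65.9, 298 and 521 CPM, against 88.0, 29.2 and 22.4 CPM in whole control females (3.56 ± 0.77, adjusted p = 0.00158), with the low thorax value in the library rich in ribosomal RNA (4.09 without it, adjusted p = 0.00166). Lsp1gamma was higher by 6.31 ± 1.19 in female and 4.33 ± 0.80 in male thoraxes (adjusted p = 0.000676 and 0.000847). Without control thorax replicate 3 of that sex, the highest in Lsp1gamma and Lsp2, it was 4.82 in females and 2.81 in males (adjusted p = 0.00069 and 0.00023). Lsp1alpha was lower in male thoraxes (14.5, 11.3 and 9.91 CPM) than in whole males, at -0.96 ± 0.27 (adjusted p = 0.014), and without control whole male replicate 2 or thorax replicate 2 this call was lost (adjusted p = 0.0724 and 0.0562). Lsp2 was not called in either sex (0.30 ± 1.37 and 0.14 ± 0.55, adjusted p = 0.848 and 0.851), nor was Fbp1 in females (-0.54 ± 0.70, adjusted p = 0.49). The genes called were 2 of 4 tested and higher in females, where 36.5% of 10762 genes were, and 3 of 4 tested in males, where 57% of 12992 genes were called either way. In a fit of only these 2 female groups Lsp1gamma was under the count filter, and 1 of the 4 genes was called.

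In male thoraxes the CBS(5) deletion went with lower RNA of 3 of the 4 genes tested, where 1.08% of 11337 genes were lower. Lsp1beta had 7.56, 7.21 and 13.1 CPM in CBS(5), against 849, 630 and 782 CPM in the control (-6.56 ± 0.47, adjusted p = 0.00526). Lsp2 had 2.96, 2.30 and 4.65 CPM in CBS(5), against 79.5, 50.4 and 89.9 CPM in the control (-4.74 ± 0.52, adjusted p = 0.0166). Lsp1alpha had 1, 1 and 0 counts in CBS(5), against 240, 172 and 123 counts in the control, a 300.2-fold lower level from the summed counts (95% counting interval 82.7 to 2486). Lsp1alpha passed the filter there only through the control, where it was high, so it adds no support to the count of 3. With no filter its adjusted p was 0.00165. The values of these 3 genes did not overlap between the strains, and the share of all genes without overlap was not counted. The Lsp1beta call was lost without CBS(5) replicate 1 (-6.43, adjusted p = 0.0525), and the Lsp2 call without control replicate 1 or any 1 CBS(5) library (adjusted p between 0.0524 and 0.120).

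Lsp1gamma did not follow in male thoraxes (9.08, 13.0 and 13.4 CPM in CBS(5), against 5.78, 3.42 and 21.9 CPM in the control, adjusted p = 0.924). The fall of Lsp1beta was larger in thorax than in whole body by -3.39 ± 0.44 (SE, adjusted p = 0.0153), a difference that was called lower for 0.0385% of 12992 genes. This call was lost when any 1 of 6 of the 12 libraries was left out (adjusted p between 0.0605 and 0.0887).

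In female thoraxes 0 of the 4 genes tested and 0% of 10153 genes were called by edgeR, with 2 of the 4 genes and 597 genes at an unadjusted p under 0.05, and DESeq2 called 1 of the 4. Lsp1beta had 62.1, 12.9 and 13.7 CPM in CBS(5), against 65.9, 298 and 521 CPM in the control, with no overlap (-4.04 ± 0.87, adjusted p = 0.329, and 5.14e-05 by DESeq2, and -4.26 without the library rich in ribosomal RNA, adjusted p = 0.677). Lsp2 had 57.3, 2.84 and 0.845 CPM in CBS(5), against 1.64, 8.32 and 46.4 CPM in the control, and overlapped throughout (-0.61 ± 1.59, adjusted p = 0.948). Fbp1 had 0.790, 0.837 and 0.188 CPM in CBS(5), against 0.158, 4.83 and 1.70 CPM in the control, and the groups overlapped through the control library rich in ribosomal RNA. CBS(5) female thorax replicate 1 was the highest of its group in both Lsp1beta and Lsp2.

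**Figure D3:**
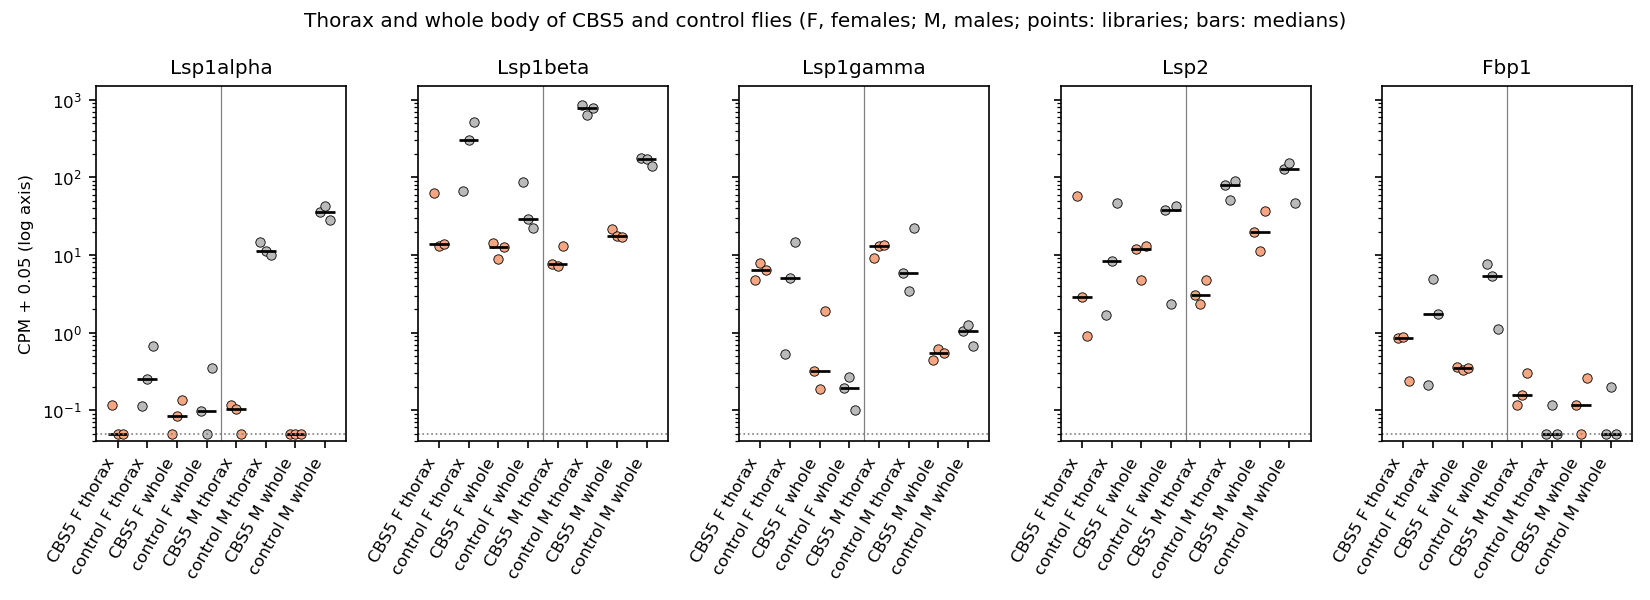
CPM (plus 0.05, log axis) of the 5 genes in thoraxes and whole bodies of CBS(5) and control flies, females left and males right of the vertical line, 1 point per library and medians as bars. Lsp1beta in male thoraxes stood between 7.21 and 13.1 CPM in CBS(5) and between 630 and 849 CPM in the control.

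Between the sexes of the control, all 5 genes passed the test in whole bodies, where 90.2% of 13535 genes did and over all genes the log2 fold change, females over males, had a median of -0.86. Fbp1 was 95.5-fold higher in females from the summed counts (303 in females and 2 in males, 95% counting interval 26.2 to 792). Lsp1alpha was lower in females at -8.13 ± 0.75 (SE, adjusted p = 2.64e-11), followed by Lsp1gamma at -2.55 ± 0.91, Lsp2 at -1.86 ± 0.71 and Lsp1beta at -1.69 ± 0.55 (adjusted p = 0.00972, 0.0151 and 0.00527). When the libraries were scaled on genes at least as high in thorax as in whole body, which moved the median of all genes to 0.64, Lsp1gamma, Lsp2 and Lsp1beta were no longer called (-1.09, -0.26 and -0.19, adjusted p = 0.230, 0.725 and 0.733). The Lsp2 call was also lost without control female replicate 2 or control male replicate 2 (adjusted p = 0.0727 and 0.0619). Lsp1alpha and Fbp1 were called under that scaling too.

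In thoraxes those 2 genes again differed between the sexes of the control, where 2.29% of 11669 genes were called. Each passed the filter only through the sex in which it was high, so the 2 calls add no support when set beside that share. Lsp1alpha had 2, 3 and 9 counts in control female thoraxes, against 240, 172 and 123 counts in control male thoraxes (-4.76 ± 0.64 and adjusted p = 0.00491 with no filter, since it passed the filter only through control males). Fbp1 had 5, 72 and 25 counts in the females and 0, 1 and 0 counts in the males (adjusted p = 0.0210 with no filter, since it passed the filter only through the females, and 73.7-fold from the summed counts, 95% counting interval 12.9 to 2938). In a fit of the 2 groups alone Lsp1alpha was not called (adjusted p = 0.0861) and Fbp1 was under the count filter, and without control male thorax replicate 2 or 3 the Fbp1 call that used the filter was lost (adjusted p = 0.0756 and 0.0761).

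The number of genes of the set called in each strain is given beside the share of all genes called. In males 3 of the 4 genes tested were lower in CBS(5), CBS(8) and DD2, where 18.1%, 19.6% and 9.74% of 13036 genes were, and 2 of 4 in DD1 and CSE, where 7.29% and 2% were. In females 3 of 5 were lower in CBS(8), 1 of 5 in CBS(5) and 1 of 5 in DD1, where 8%, 3.89% and 14.2% of 10548 genes were, so the last of these is near the background. In DD2 females 1 of 5 was higher, where 34.4% of genes were, so this count is below its background, and in CSE females 1.65% of genes were higher and the 1 member that was, Lsp1alpha, had passed the filter through CSE and DD2. In MST 0 of 5 in females and 0 of 4 in males were called by edgeR, where 0.891% and 1.54% of genes were called either way, with 1 and 0 at an unadjusted p under 0.05 and 0 and 0 by DESeq2. The unadjusted one was Lsp2 in females, at 0.905, 10.003 and 0.759 CPM, which was called without MST female replicate 2 (-5.12, adjusted p = 0.0439).

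Against the parent lines, DD1 was higher than CBS(5) in 1 of 5 genes in females and 2 of 4 in males, where 2.26% and 16.3% of genes were higher. DD2 was higher than CBS(8) in 2 of 5 in females and 2 of 4 in males, where 3.08% and 4.83% were. One of the DD1 male calls was Lsp1alpha, with 11 counts in 3 DD1 libraries and 0 in 3 CBS(5) libraries, a level at least 3.77-fold higher. It was lost without any 1 of 5 of the 6 libraries (adjusted p between 0.0540 and 0.0951). The libraries labelled DD2yw had 5 of 5 genes called against the control and 3 of 5 against DD2, where 16% and 21.1% of 13260 genes were called either way. Fbp1 is among the 5 called against the control. It passed the filter only through these libraries, where it was high, so it adds no support to that count. The comparisons with the control share its libraries.

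**Figure D4:**
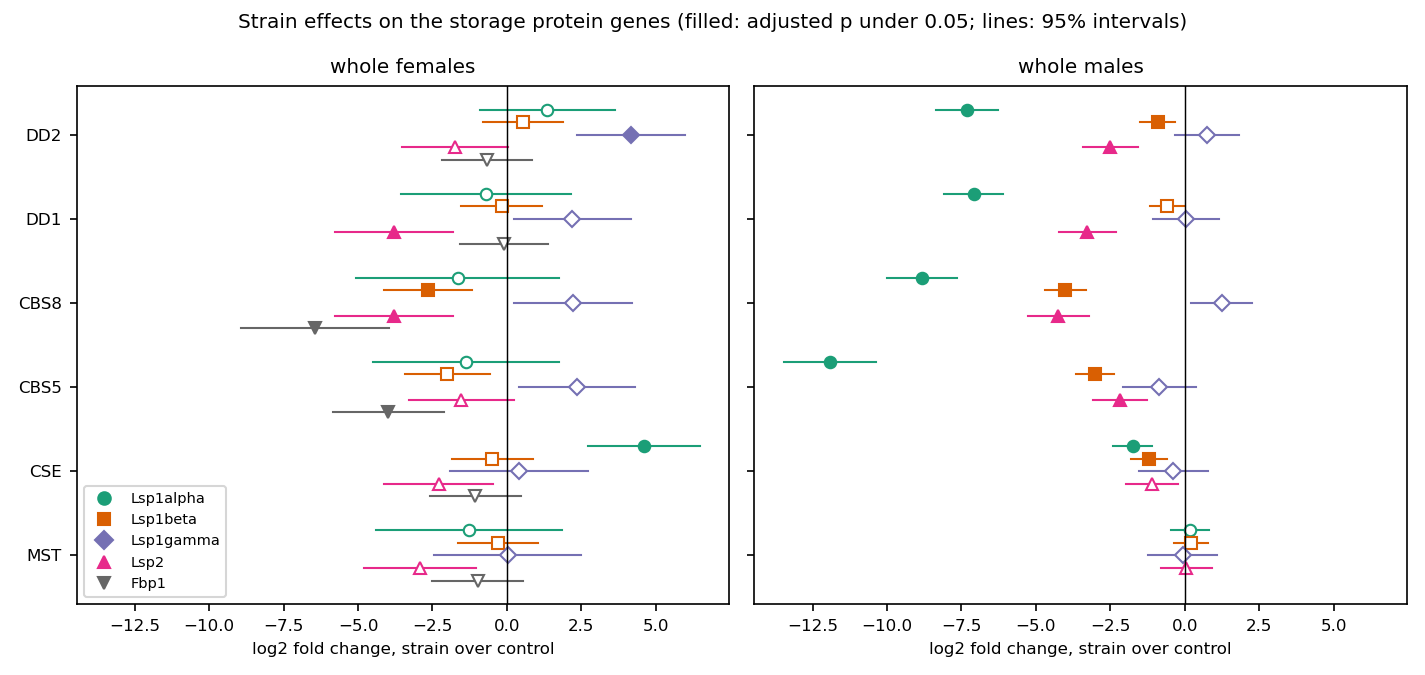
Log2 fold change of each gene, strain over control, in whole females and whole males (points, filled where the adjusted p is under 0.05, lines 95% intervals, 3 libraries per group). Lsp1alpha lay between -11.92 and -7.09 in males of the 4 strains without Cbs, where its counts were near or at 0 and the fitted value is no bound, and Fbp1 is not drawn in males, where it was under the count filter.

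In whole bodies replicates differed more in these genes than in most. The biological coefficient of variation that edgeR fitted was between 0.571 and 0.806 for the 5 genes in whole females, against a median of 0.165 over all genes, and at least 99.3% of genes had a lower one. In whole males it was between 0.255 and 0.402 for the 4 genes tested, against a median of 0.161, with at least 86.9% of genes lower. In female thoraxes it was 1.21 for Lsp2, the highest of the set, against a median of 0.400. In male thoraxes Lsp1alpha was near the median (0.281 against 0.261), with 55.9% of genes lower. Lsp1gamma was the highest there at 0.692, with 90.2% of genes lower.

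Within groups, libraries high in 1 gene tended to be high in another, but this did not hold for Lsp1gamma in whole males. Over the 56 libraries, after the mean of each group was subtracted from log2(CPM + 1), Pearson's r was 0.68 for Lsp1beta with Lsp2 and 0.67 for Lsp1beta with Fbp1. The same r of Lsp1beta with Fbp1 was 0.77 in the 21 whole females and 0.04 in the 21 whole males, where Fbp1 was close to 0. Over the 56 libraries Lsp1beta with Lsp1gamma gave 0.43, and Lsp2 with Fbp1 gave 0.15. These 56 include the control female thorax library rich in ribosomal RNA, and its part in r was not tested. In the 21 whole males Lsp1gamma had an r of -0.24 with Lsp1alpha, -0.04 with Lsp1beta, -0.22 with Lsp2 and -0.68 with Fbp1. When only the mean of each sex was subtracted, so that strain differences stayed in, r over the 42 whole bodies was 0.67 for Lsp1alpha with Lsp2, 0.59 for Lsp1beta with Lsp2 and 0.56 for Lsp1alpha with Lsp1beta, and -0.17 for Lsp1gamma with Lsp2. These points share strains and libraries, and the values are a description.

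**Figure D5:**
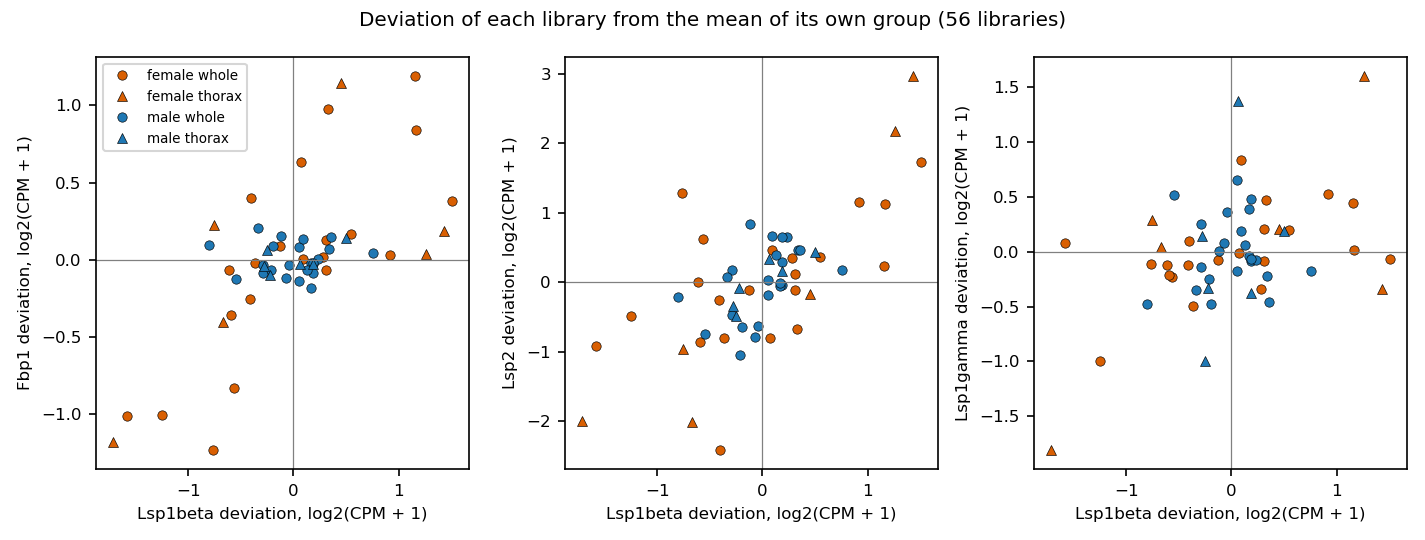
Deviation of each of the 56 libraries from the mean of its own group in log2(CPM + 1), Lsp1beta on the horizontal axis and Fbp1, Lsp2 and Lsp1gamma on the vertical axes, by sex (colour) and tissue (shape). Female libraries spread most, and r over all points was 0.67 with Fbp1, 0.68 with Lsp2 and 0.43 with Lsp1gamma.

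The genes whose levels followed each member most closely over the same 42 libraries, with sex means subtracted, were named by a fixed rule. For Lsp1alpha they were CG15553 (r = 0.92), CG44355 (0.90) and Iml1 (0.89), on 3R, 3L and 3L. For Lsp1beta they were CG10073 (0.83) and the cytochrome P450 genes Cyp6a16 (0.80) and Cyp4d20 (0.78), and for Lsp1gamma CG15414 (0.81), CG14298 (0.80) and the chitin deacetylase gene serp (0.79). Lsp2 was closest to Gnmt (0.78), which encodes glycine N-methyltransferase, an enzyme of methionine metabolism, then to CG17751 (0.76) and Srg3 (0.75). For Fbp1 the values were lower, with CG31041 (0.71), CG18180 (0.67) and CR44003 (0.66). No member appeared among the 3 closest genes of another. With a pseudocount of 0.1 in place of 1, the 3 closest of Lsp1beta stayed the same, while CG15553 and CG44355 left those of Lsp1alpha, CG14298 those of Lsp1gamma, Srg3 those of Lsp2, and CG31041 and CG18180 those of Fbp1.

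Other genes of larval life were low in whole bodies and higher in thoraxes. The 17 larval and prepupal genes (larval cuticle, salivary glue and related genes) summed to between 0.233 and 4.47 CPM in whole bodies of useful depth and to between 2.37 and 21.5 CPM in thoraxes. The glue genes Sgs3 and Sgs8 passed the count filter only through CBS(8) and had 0.752 to 1.17 and 0.752 to 1.08 CPM in CBS(8) males, against up to 0.0681 and 0.0835 CPM in control males. Fbp2, another larval fat body gene, had at most 1.80 CPM in any library. PPO2, a hemocyanin-family prophenoloxidase of crystal cells, fell in CSE males (-0.96), DD2 males (-0.96) and CBS(5) male thoraxes (-1.06), rose in CBS(8) and DD2 females (0.87 and 0.88), and was not called in CBS(5), CBS(8) or DD1 males.

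Adult fat body genes moved in both directions. Of 17 such genes tested, CBS(5) males had 2 that rose and 1 that fell, CBS(8) males 2 and 2, DD1 males 4 and 6, and DD2 males 1 and 5, with median log2 fold changes of 0.16, 0.33, -0.04 and -0.15 against 0.03, 0.02, -0.02 and -0.03 over all genes. Of all genes 14.6%, 12.8%, 5.37% and 8.24% were higher and 18.1%, 19.6%, 7.29% and 9.74% lower in these males. In DD1 the share that rose and the share that fell were both above the background, and in DD2 only the share that fell was. In females 4, 6, 6 and 12 of the 17 rose in CBS(5), CBS(8), DD1 and DD2, and 0, 0, 2 and 3 fell, where 11.3%, 16.6%, 16.6% and 34.4% of all genes rose and 3.89%, 8%, 14.2% and 31.8% fell. Obp99b, an odorant-binding protein gene, rose in males of CBS(5), CBS(8) and DD1 (1.31, 1.40 and 2.63). Mtp, which loads lipid onto lipoproteins, was among those that fell in males of all 4 strains (-0.62, -0.55, -0.83 and -0.86). The yolk protein genes were among those that fell in DD1 and DD2 males. Their summed RNA, a sign of female RNA, was 85.5 to 181 CPM in DD1 and 121.5 to 140.7 CPM in DD2, against 832 to 1971 CPM in control males. The part of female RNA in the shares that fell was not tested.

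Of 13 ecdysone response genes, 2 rose in CBS(5) males, 3 in CBS(8), 1 in DD1 and 1 in DD2, and 0 fell in any. Of all genes 14.6%, 12.8%, 5.37% and 8.24% rose in these males. The rises were near these shares in CBS(5), DD1 and DD2, and above the share in CBS(8), a difference that was not tested. MsrA, an ecdysone-induced gene for methionine sulfoxide reductase, was the one that rose in all 4 (3.06, 2.47, 2.59 and 2.79), with 548 to 716 CPM in CBS(5) males, against 70.6 to 97.4 CPM in control males. Among 7 GATA factors and other fat body regulators 1 fell in CBS(5) males, srp, and 1 rose in DD2 males, slbo. Of all genes 18.1% fell in CBS(5) males, which 1 of 7 does not exceed, and 8.24% rose in DD2 males. The GATA factor of fat body and blood cell development, srp, changed by -0.57 (17.99 to 28.2 CPM in CBS(5), against 30.6 to 42.1 CPM in the control). Of 9 juvenile hormone genes 1 rose and 1 fell in CBS(5) and in CBS(8) males, and 2 and 1 fell in DD1 and DD2, and in CBS(5) and CBS(8) neither count exceeded the share of all genes. Jhe, the esterase that breaks down juvenile hormone, fell in CBS(5), CBS(8) and DD1 males (-0.60, -1.12 and -0.68).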

How the data were processed

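RNA from whole bodies and thoraxes was made into libraries with a directional kit, and per the labels the molecule was polyA RNA. The submitters' processing notes name FastQC, Trimmomatic 0.38, STAR 2.5.0a and featureCounts 1.5.0-p1, with reads mapped to dm6, and the strand setting of the counting was not given in the sources used here. The deposited values are raw counts per gene, 1 file per library, which the authors did not normalize.

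CPM was computed as the count divided by all counts on genes of the library, times 1000000. Groups were compared with the quasi-likelihood test of edgeR 4.0.16 (limma 3.58.1, R 4.3.3) after TMM scaling and filterByExpr (minimum count 10, total 15), with Benjamini-Hochberg adjustment over all genes tested and a threshold of 0.05. Standard errors are the absolute log2 fold change over the square root of F, and intervals of fold changes are made from them. Whole females, whole males and the thoraxes of each sex were fitted apart, and the 42 whole bodies and 12 thoraxes together for the sexes. For genes with few counts, summed counts were compared with exact 95% intervals, and a group at 0 was set to a floor of 3 counts. Libraries under 1000000 counts were left out.

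The 5 genes and the gene lists were chosen with earlier results of these data known. All 5 were named in each comparison, of each list the called genes with the highest CPM, and for likeness the 3 highest r among genes with a mean of at least 5 CPM in 1 group. The alternatives were DESeq2 1.42.0, TMM factors from genes at least as high in control thorax as in control whole body, no count filter, a fit of only the groups compared, the replicate number as a block, leaving out each library, a minimum absolute log2 fold change of 1, TMM-scaled CPM, a pseudocount of 0.1 and keeping the shallow library. Scripts were tested on simulated data. Same-numbered libraries deviated together in every pair (r of 0.307 to 0.564) only for DD1 and CBS(5) whole females. The labels give no pairing, and whether the numbers pair those libraries was not established. No replicates had identical counts.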

Additional observations from a re-analysis of the deposited data

Results flagged for a closer look

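In 4 strains the test of the difference of effects between the sexes called Lsp1alpha. Effect in females minus effect in males, it was 6.36 in CSE (adjusted p = 8.64e-05, edgeR), where the change was positive in females and negative in males. It was 10.92 in CBS(5) (adjusted p = 0.0346), 6.54 in DD1 (adjusted p = 0.0240) and 8.63 in DD2 (adjusted p = 3.71e-05), and in these the female libraries of strain and control held at most 12 counts each, so no fall in females could be seen and these differences restate the fall in males. For Lsp1gamma in DD2, effect in females minus effect in males was 3.31 (adjusted p = 0.0208). The effect of CBS(5) on Lsp1beta in males differed between tissues, thorax minus whole body, by -3.39 (adjusted p = 0.0153).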

How the results depend on the processing

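None of the called fold changes of the 5 genes changed direction under any alternative run. Counts of genes called moved by over 1.5 times, or to or from 0, in these cases. With TMM factors from thorax genes the count was 2 for CBS(5) females, 3 for DD2 females and 2 for the sexes of whole control flies. With DESeq2 it was 3 for CBS(5) females, 1 for CBS(5) female thoraxes, and 3 and 2 for the sex difference of CBS(5) and CBS(8) effects. In a fit of only the groups compared it was 0 for CSE females, 0 for DD1 against CBS(5) in females and 1 in males, 0 and 1 for the sex difference of CBS(5) and CBS(8) effects, 0 for the sexes of control thoraxes and 1 for thorax against whole body of control females. When single libraries were left out, the counts ran between 0 and 1 for MST, CSE and DD1 against CBS(5) females and for the CBS(5) effect in male thorax minus whole body, 1 and 2 for CBS(5) and DD2 females, DD1 against CBS(5) and DD2 against CBS(8) males and the sexes of control thoraxes, 0 and 4 for DD2 against CBS(8) females, and 1 and 3 for CBS(5) male thoraxes, and it was 1 for CSE males whichever library was left out. Smaller moves were 4 in place of 3 for CBS(8) females and males and 4 in place of 3 for DD2yw against DD2 in a fit of only the groups compared, 3 in place of 2 for DD1 against CBS(5) males with DESeq2, for DD2 against CBS(8) males with no filter and for the sex difference of DD2 effects with DESeq2 or TMM from thorax genes, 2 in place of 3 for DD2 males and for thorax against whole body of control males with a minimum fold change, and 4 in place of 5 for DD2yw against the control with the shallow library. The causes were not tested.

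With the replicate block the members called stayed at 3 of 4 in CBS(5) and CBS(8) males and 1 of 5 in DD1 against CBS(5) females, and no call of a member changed in any of 30 comparisons.

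TMM factors from thorax genes moved the median change over all tested genes to between -0.97 (DD2) and -0.15 (MST) in females. The percent of all genes called moved by over 1.5 times in 10 of 30 comparisons with DESeq2, 13 without a filter, 20 with a minimum fold change and 2 with the block. TMM-scaled CPM moved Lsp1gamma of CBS(5) female thoraxes to 4.56. In CBS(5) female thoraxes edgeR called 0 genes and DESeq2 98 higher and 75 lower, and without control replicate 3 edgeR called 47 higher and 32 lower. Not run were that TMM for thorax against whole body and left-out libraries for sex differences of effects. Members under 10 counts set the depth limit: Lsp1alpha in females and Fbp1 in males were at 0 to 3 counts in most libraries.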
